A study of Mus musculus with 73 samples.

Results

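The genes described here encode the subunits, catalytic variants and activators of the proteasome. They were chosen by symbol alone, as every row of the count table whose name begins with Psma, Psmb, Psmc, Psmd or Psme followed by a number. Of 50 such rows, 5 pseudogenes were left out and Psmc3ip, which names a protein that binds Psmc3, was set apart, leaving 44 genes of 55291 gene rows. Of the 44, 43 had at least 1 count in some cell and 34 were detected in at least 37 of 73 cells. Detection meant 10 CPM, where CPM is the count of a gene per 1000000 counts of its library. The background for counts of genes detected in at least 37 cells, here and below, is 4901 of 8618. Those 8618 are the genes with a mean of at least 10 CPM, which 37 of the 44 had.

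The cells were 73 single inner hair cells, the sensory cells that pass sound to the auditory nerve, picked by hand from mouse cochleae at postnatal day 14. All carried Atoh1Cre/+ and Casz1flox/flox, a GFP reporter, Rosa26-CAG-Loxp-stop-Loxp-3xGFP(Ai47), opened by Cre, a tdTomato reporter, Rosa26-CAG-Frt-stop-Frt-tdTomato, opened by Flp, and Fgf8-Flpo/+. Cre is driven by Atoh1, a gene of developing hair cells, and Flp by Fgf8, an inner hair cell gene, and a picked cell showed both colours. Casz1 encodes a transcription factor with zinc fingers, and the study asked about the fate of inner hair cells that lack it. The cells form 1 group from an unstated number of animals, so they count as 1 sample without replicates, no test was possible, and the wild-type cells were not analysed here. Nothing below is therefore a statement on what the deletion changed.

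The proteasome is the main protease of the cytosol and nucleus. Its 20S core is a barrel of stacked rings, with alpha subunits in the outer rings as a gate and beta subunits in the inner rings, some of which cut protein. The 19S regulatory particle binds ubiquitin-tagged proteins, and its ATPases unfold them and feed them into the core. Interferon-gamma induces catalytic variants (Psmb8, Psmb9 and Psmb10) that replace Psmb5, Psmb6 and Psmb7 to form the immunoproteasome, which supplies peptides for MHC class I, together with the activator made of Psme1 and Psme2.

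Library totals ran from 11027945 to 37183702 counts (median 17333640). All 12 general hair cell markers were detected in at least 37 cells, and their sum was at least 17048 CPM in every cell. Reads of Casz1 had a median of 42.1 CPM and were detected in 55 cells; the deleted exons are not given in the sources used here, so this does not test the deletion. Markers of other cells marked out 2 libraries. In library 5 the 9 B cell markers summed to 8512 CPM, whereas the next highest cell had 290.4 CPM and the median was 0. Library 67 had the highest sums of supporting cell (1167 CPM), mesenchyme (330.5 CPM) and glia markers (212 CPM), with 107 CPM of leukocyte and 103 CPM of B cell markers. Of the 12 leukocyte markers, 4 were detected in some cell, their sum ran from 0 to 307 CPM (median 0.979), and Cx3cr1, Tyrobp and Aif1 had no count in any cell.

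RefSeq promoter windows, 250 bases before to 50 after a start site in GRCm38.p6, were matched by symbol for 37 of the 44 genes. The 5 stretches below show matches to letters known from regulators of these genes, for the constitutive catalytic subunits Psmb5 and Psmb6, the immune subunit Psmb8, the activator Psme1 and Psmd6, the 19S transcript with the highest level per length in these cells. Each is 30 bases, written 5′ to 3′ on the strand of the gene, with the matched letters in capitals.
Psmb5, chr14:54618023-54618052, minus strand: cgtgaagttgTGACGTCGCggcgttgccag
Psmb6, chr11:70525338-70525367, plus strand: ctaaagagagTGACGGAGCgctttacgacg
Psmb8, chr17:34198088-34198117, plus strand: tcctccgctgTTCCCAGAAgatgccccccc
Psme1, chr14:55578493-55578522, plus strand: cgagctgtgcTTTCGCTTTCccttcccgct
Psmd6, chr14:14120972-14121001, minus strand: cagagacgcgaCCGGAAGtcagactggcgg

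The capitals in Psmb5 and Psmb6 match TGACNNNGC, the antioxidant response element through which NRF1 and NRF2 act, and begin 47 and 9 bases before the start. Those in Psmb8 match TTCNNNGAA, the gamma-activated site, 97 bases before the start. In Psme1 they match GAAANN followed by GAAA on the opposite strand, the core of the interferon-stimulated response element, 9 bases after the start. In Psmd6 they match CCGGAAG, a site of ETS factors, 45 bases before the start. Each set of letters was searched on both strands. TGACNNNGC was found for 6 of the 37 genes (16.2%, against 13.99% of 27025 genes with a window), the others being Psmc6, Psmd12, Psmd9 and Psme4. The gamma-activated letters were found for 2 (5.4% against 9.6%), Psmb8 and Psmd2, and the interferon-stimulated letters for 4 (10.8% against 4.0%), Psmb3, Psmd4, Psmd9 and Psme1. CCGGAAG was found for 12 (32.4% against 9.9%), among them Psma6 of the core and the activators Psme3 and Psme4, the rest being 19S subunits. CCAAT was found for 37.8% against 41.1%, GGGGCGGGG for 16.2% against 12.9%, AAGATGGCG for 5.4% against 1.6%, and TGACGTCA, which shares its first letters with TGACNNNGC, for 0 against 2.0%. A match describes letters in this window and not binding.

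The 31 constitutive subunits, 14 of the 20S core and 17 of the 19S particle, were each detected in at least 37 of the 73 cells. A cell had 22 to 31 of them at 10 CPM or more (median 29). Together they made up 0.686% of the counts of the median cell, from 0.387% in library 10 to 1.03% in library 26. The summed level was thus 3869 CPM in the lowest cell, 6855 CPM in the median cell and 10342 CPM in the highest. Of the 44 genes, 8 reached 10 CPM in every cell, namely Psma2, Psma3, Psma7, Psmb1, Psmb2, Psmb4, Psmc1 and Psmd6. At the other end, 16 of the 31 constitutive genes had at least 1 cell with no count, and 21 were under 1 CPM in some cell. Gaps were found mainly in the genes of low level. Over the 31 genes, the number of cells with detection followed the mean CPM (rank correlation 0.88, n = 31 genes of the same cells). Both are read from the same CPM values, so this correlation is largely built in.

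**Figure D1:**
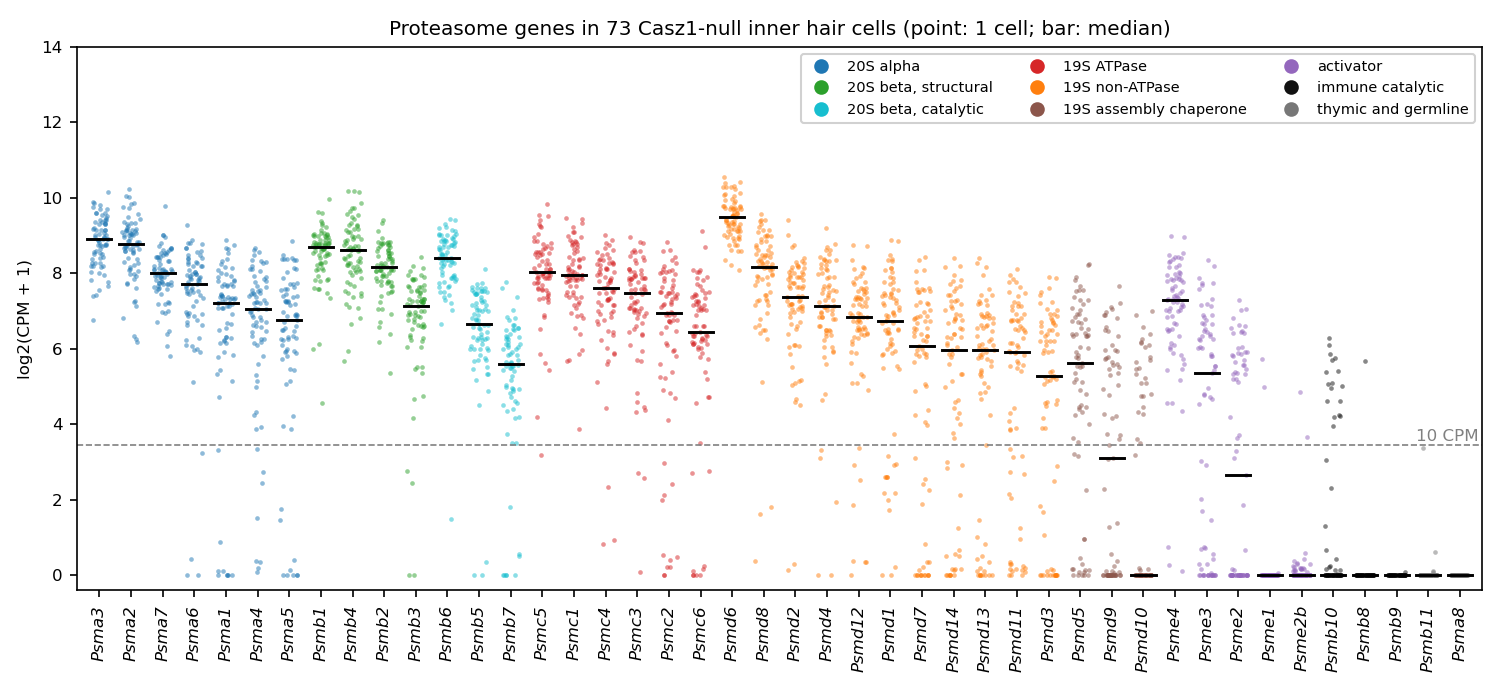
Level of each of the 44 proteasome genes in each of the 73 cells, as log2(CPM + 1), grouped by role and ordered within a role by median (black bar); the dashed line is the detection level of 10 CPM. The constitutive genes lie mostly above the line with scattered cells at 0, whereas Psme1, Psme2b, Psmb8, Psmb9, Psmb11 and Psma8 lie almost wholly at 0.

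The 7 alpha subunits build the outer rings and the gate of the core. Psma3 ran from 107 CPM in the lowest cell through a median of 481 to 1136 in the highest. Psma2 ran from 72.2 CPM through a median of 439 to 1209. Neither had a cell without detection. Psma7 was similar in reach, at 55.3, 255 and 886 CPM. Psma6, with 0, 210.0 and 625 CPM, was undetected in 4 cells but was the highest of the alpha genes per kb of exon (median 170 CPM). Per kb of coding sequence it was 285 CPM, below Psma3 (629), Psma2 (625) and Psma7 (343). The remaining alpha genes dropped out of more cells. Psma1 had a median of 149 CPM and was detected in 64 cells, Psma4 a median of 131 CPM with 65 cells, and Psma5 a median of 108 CPM with 64 cells. Per kb of exon the alpha medians spanned 50.4 (Psma1) to 170 (Psma6).

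The 4 beta subunits without catalytic activity complete the inner rings. Psmb1 ran from 22.6 CPM through a median of 414 to 1008, Psmb4 from 50.4 through 393 to 1173, and Psmb2 from 40.5 through 286 to 683. These 3 were found in every cell, and Psmb2 was the highest 20S gene per kb of exon (237 CPM). Per kb of longest transcript it was below Psmb6 (333 against 349 CPM). Per kb of coding sequence it was below several 20S genes, the highest being Psma3 (474 against 629 CPM). Psmb3 was lower than the other structural beta genes, also per kb of exon (61.03 CPM). It had a median of 140 CPM (range 0 to 344) and was detected in 69 cells.

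Of the catalytic subunits, Psmb6 carries the caspase-like site, Psmb7 the trypsin-like site and Psmb5 the chymotrypsin-like site. Psmb6 ran from 1.80 CPM in the lowest cell through a median of 337 to 700.4 in the highest, and was detected in 72 cells. Psmb5 ran from 0 through 101 to 277 CPM and was detected in 70 cells. Psmb7 ran from 0 through 47.9 to 219 CPM and was detected in 65 cells. Per kb of exon the medians of Psmb6, Psmb5 and Psmb7 were 180, 112 and 14.01 CPM, so the transcripts of subunits that sit in the same ring in equal number were not at equal level. The low value of Psmb7 depended in part on its long annotated exons, since it was 16.8 CPM per kb of its longest transcript and 57.7 CPM per kb of its coding sequence, but on each of these 3 lengths it was the lowest of the 14 20S genes. Reads at Psmb7 are also uncertain, because 11.8% of its exon bases overlap Nek6 on the other strand and whether strand was used in counting is not stated. The same holds for Psmd9 (25.5%, Gm26745), Psmb8 (14.7%, Gm20496) and Psmd13 (10.1%, Sirt3). Further members share smaller parts with genes on the other strand. Psmb5 shares sequence with the pseudogene Psmb5-ps, which itself reached 10 CPM in 3 cells (highest 101 CPM).

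The 6 ATPases Psmc1 to Psmc6 form the ring that unfolds substrates. Psmc5 was the highest of them per length, with a median of 261 CPM (range 8.08 to 916, 72 cells detected) or 187 CPM per kb of exon. Psmc1 followed, with 248 CPM (range 13.7 to 706) or 128 CPM per kb, and was the one ATPase found in every cell. Psmc4, at 195 CPM, and Psmc3, at 177 CPM, were each detected in 70 cells. Psmc2, at 123 CPM, was found in 62 cells and Psmc6, at 86.4 CPM, in 64. The ring holds 1 copy of each in the assembled particle, whereas the lowest median per kb of exon was 24.5 CPM (Psmc2). The gap depended in part on the length used. Per kb of coding sequence Psmc5 had 214 CPM, Psmc2 86.5 CPM and Psmc6, then the lowest, 74.0 CPM.

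Among the 11 non-ATPase subunits, Psmd6, a part of the lid, stood highest. Its position in mm10 is chr14:14112174-14120984, minus strand. Its level was 269.7 CPM in the lowest cell, 720.4 in the median cell and 1507 in the highest. Per kb of exon it had a median of 257 CPM, the highest of the 31, and it was also highest per kb of longest transcript (519 CPM). Per kb of coding sequence it was 617 CPM, just under Psma3 (629) and Psma2 (625). The next non-ATPase per kb of exon was Psmd8 (94.6 CPM), with a median of 289 CPM and 70 cells detected. Psmd2, a large base scaffold, had a median of 164 CPM in 71 cells. Psmd4, a ubiquitin receptor, had 140.0 CPM in 68 cells.

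The other non-ATPase genes were detected in fewer cells. Psmd12, a lid subunit, had a median of 115 CPM, and Psmd1, the other large scaffold, 105 CPM. Psmd14, the deubiquitinase that cleaves ubiquitin chains from substrates, had a median of 61.7 CPM (range 0 to 337) and was detected in 53 cells. Psmd7, its partner in a dimer, had 67.01 CPM and 52 cells, Psmd13 had 61.4 CPM and 55 cells, and Psmd11 had 59.2 CPM and 51 cells. Psmd3 was the lowest of the constitutive genes on each length, with a median of 38.3 CPM (range 0 to 237), detection in 52 cells and no count in 13. The median over genes per kb of exon was 101 CPM for the 20S and 40.6 CPM for the 19S genes. Per kb of coding sequence these were 314 and 83.8 CPM.

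Psmd5, Psmd9 and Psmd10 are chaperones that assemble the 19S base and leave it afterwards. Psmd5 had a median of 48.1 CPM (range 0 to 306) and was detected in 55 cells. Psmd9 had a median of 7.60 CPM with 35 cells detected, and Psmd10 a median of 0 with 26 cells. Of the 3 chaperones, only Psmd5 was detected in a majority of cells.

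The activators differed widely. Psme4, which caps the core in place of the 19S particle, ran from 0.0925 CPM through a median of 156 to 509 and was detected in 70 cells. Psme3, the nuclear activator, ran from 0 through 40.4 to 327 CPM and was detected in 43 cells. Psme2 had a median of 5.27 CPM (range 0 to 157) and was detected in 34 cells, or 33 cells with a highest value of 132 CPM without library 5. Psme1, its partner in the interferon-induced activator, was detected in 2 cells, with a highest value of 52.5 CPM in library 67, where markers of several other cell types were at their highest. No cell had both Psme1 and Psme2 at 10 CPM, 34 had Psme2 alone and 2 had Psme1 alone. Psme2b, an intronless copy of Psme2 that its reads could be shared with, reached 10 CPM in 2 cells (highest 28.1 CPM).

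Transcripts of the immune catalytic subunits were rare. Psmb8 was detected in 1 of 73 cells (1.37%, exact 95% Clopper-Pearson interval 0.03 to 7.40%), at 49.9 CPM, which is 1189 counts. That cell was library 5, which had the highest B cell marker sum, so without it Psmb8 was detected in 0 of 72 cells. Psmb9 was detected in 0 of 73 cells, for which the exact interval reaches 4.93% and a limit of 3 counts gives 4.11%, and it had no more than 0.0728 CPM in any cell. Psmb10 was detected in 17 cells (23.3%, interval 14.2 to 34.7%), with a median of 32.8 CPM where detected and a highest value of 76.9 CPM in library 47. Intervals and limits cover counting error only. Psmb11, a thymic subunit, had at most 9.45 CPM, and Psma8, a subunit of germ cells, had no count in any cell.

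Leukocyte and B cell markers were set beside these genes. At least 1 marker of the 2 lists was detected in 36 of the 73 cells (49.3%), and in 8 of the 17 cells with Psmb10 (47.1%). For Psme2 it was 16 of 34 cells (47.1%). The shares were higher for the genes of antigen presentation, at 64.3% of the cells with B2m, 63.6% with H2-D1, 60.5% with H2-K1 and 4 of 7 cells with Tap2, and both cells with Tap1 had a marker. The part of such markers in these results was not tested. In library 47, with the highest Psmb10, the markers summed to 2.86 CPM, and in library 23, with 67.3 CPM of Psmb10, to 0.228 CPM. Among the 49 cells in which no leukocyte or B cell marker reached 50 CPM, Psmb10 was detected in 11 and Psme2 in 25. In library 5, Psmb8 and Psme2 were at their highest of all cells (49.9 and 157 CPM), while Psmb10 and Psme1 were at 0.

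**Figure D2:**
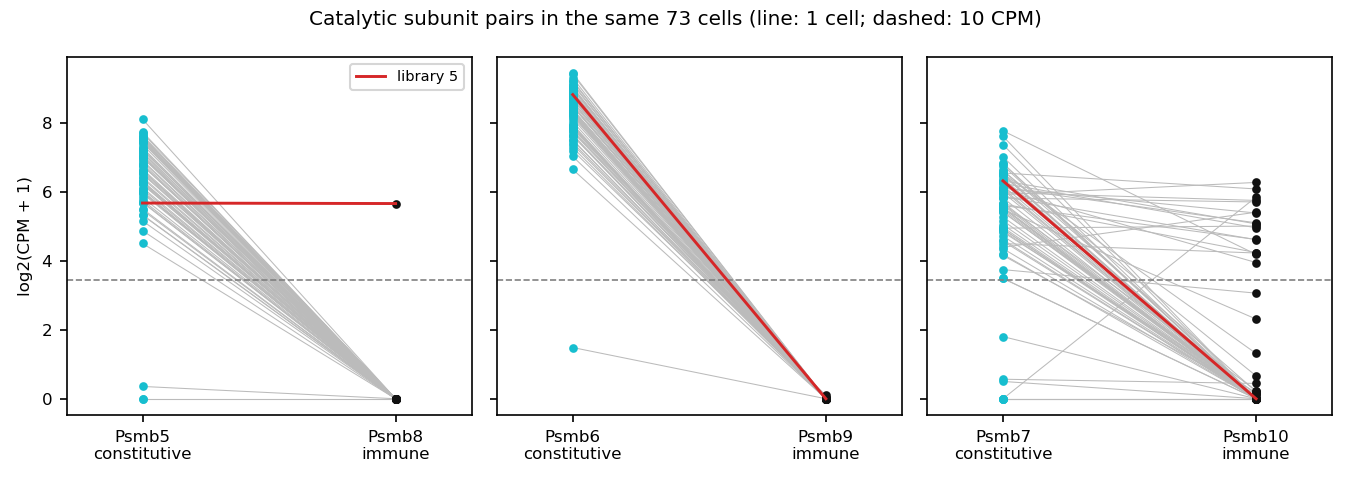
Each constitutive catalytic subunit and the immune subunit that replaces it, as log2(CPM + 1), joined by a line for each of the 73 cells; library 5 is in red and the dashed line is 10 CPM. Psmb8 was above the line in library 5 alone, with 49.9 CPM beside 50.4 CPM of Psmb5. These levels are not divided by length, and Psmb8 has 3.381 kb of exon against 0.899 kb for Psmb5. Psmb9 lay at or near 0, and Psmb10 formed a group of 17 cells above the line.

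The immune share of catalytic transcripts was taken per cell as Psmb8, Psmb9 and Psmb10 over those plus Psmb5, Psmb6 and Psmb7, each per kb of exon. It was 0 in 43 cells, with a median of 0, a mean of 1.79% and a highest value of 19.4% in library 23. That cell had 67.3 CPM of Psmb10 beside 74.5 CPM of Psmb5, 100.2 CPM of Psmb6 and 93.2 CPM of Psmb7. In library 5 the share was 4.38%, and the mean without it was 1.75%. Taken pair by pair, Psmb10 was above Psmb7 per kb of exon in 11 cells but per kb of coding sequence in 4, whereas Psmb8 was above Psmb5 and Psmb9 above Psmb6 per kb of exon in 0 cells. In 4 cells neither Psmb7 nor Psmb10 had a count.

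Most genes that act with interferon and MHC class I were not detected in a majority of cells. Of 24 such genes, 4 were detected in at least 37 cells, namely Stat2, H2-K1, Ifngr2 and Jak1. Of the 8618 genes with a mean of at least 10 CPM, which 13 of the 24 had, 4901 were. The peptide transporter gene Tap1 was detected in 2 cells and Tap2 in 7. Irf1 was detected in 13 cells and Nlrc5 in 1 cell, and Irf7 had no count in any cell. The class I heavy chains were more frequent, with H2-K1 in 38 cells (highest 739 CPM) and H2-D1 in 33 (highest 1071 CPM), and their light chain B2m in 28. Of the 17 cells with Psmb10, 6 also had H2-K1.

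Partners and assembly factors of the proteasome were widely found, 14 of 15 in at least 37 cells. Pomp, the maturation factor of the 20S core, ran from 46.7 CPM through a median of 337 to 714 and was detected in every cell. Sem1, a small lid subunit outside the naming scheme used here, had a median of 147 CPM, also in every cell. The ubiquitin receptor Adrm1 had a median of 55.5 CPM in 55 cells. The core chaperones Psmg1, Psmg2 and Psmg4 were detected in 40, 44 and 54 cells, and Psmg3 in 27. The proteasome-bound deubiquitinases Usp14 and Uchl5 had medians of 94.1 and 120 CPM.

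Of 15 regulators of proteasome genes, 7 were detected in at least 37 cells. Nfe2l1 (NRF1), which raises proteasome genes when the protease is inhibited, had a median of 40.5 CPM in 59 cells, and its protease Ddi2 24.7 CPM in 50 cells. Nfe2l2 (NRF2) had a median of 75.1 CPM. Among 14 genes of ubiquitin supply and shuttling, 12 were found in at least 37 cells. Ubb, a polyubiquitin gene, had a median of 5411 CPM (range 1637 to 8362), and the unfoldase Vcp 189 CPM, both in every cell.

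The product of Slc26a5 is prestin, the motor that lets outer hair cells change length, and its transcript varied widely among these cells, from 0 through a median of 73.1 CPM to 1229, with 51 cells at 10 CPM or more. For each gene with a mean of at least 10 CPM the rank (Spearman) correlation with Slc26a5 over the 73 cells was taken as a description. All cells are from 1 sample, and the 2 sides share each library's depth and composition. Of the 44 proteasome genes, 37 had that mean. The 7 left out were Psmb8, Psmb9, Psmb10, Psmb11, Psma8, Psme1 and Psme2b, so the immune subunits have no value here. None of the 37 reached 0.5 in either direction. Over all 8618 genes, 1.35% reached 0.5 or higher and 0.870% reached -0.5 or lower. The values for the 37 ranged from -0.31 (Psmd5) to 0.42 (Psma2), with a median of 0.08 beside -0.03 for all genes. Of the 37, 27 were above 0, beside 3728 of all 8618 genes.

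The classes were placed differently on this scale. All 14 of the 20S genes were above 0 (median 0.17), as were 11 of the 17 in the 19S (median 0.05). The 3 assembly chaperones were all below 0. Of all 8618 genes, 3728 were above 0 and 4890 below. The highest values were those of Psma2 (0.42), the ATPase Psmc1 (0.41), Psmb1 (0.40), Psmb5 (0.33) and Psma5 (0.29). The lowest were Psmd5 (-0.31), Psmd9 (-0.19), Psmd10 (-0.18), Psmc5 (-0.15) and Psmd3 (-0.13). Psmd6 and Psmd8, the non-ATPase genes with the highest level per length, were near 0 (0.08 and 0.00). These are differences between values of the same 73 cells and were not tested.

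**Figure D3:**
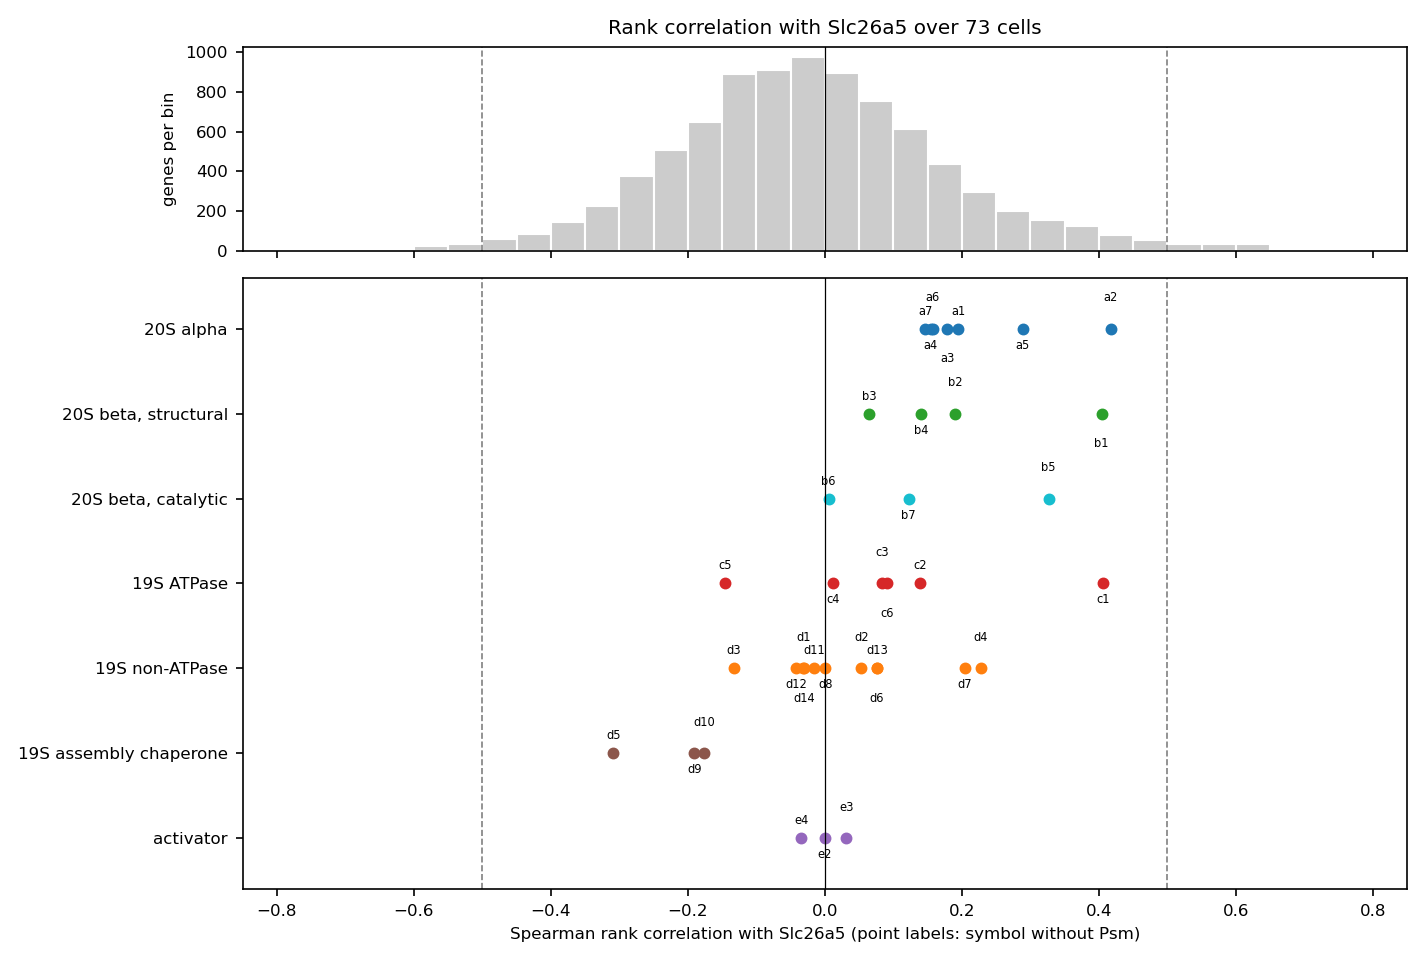
Top, number of genes in each bin of 0.05 of the rank correlation with Slc26a5 over 73 cells, for all 8618 genes whose mean was at least 10 CPM. Bottom, the 37 proteasome genes by class on the same axis, with dashed lines at -0.5 and 0.5; all 37 lie between the lines, the 20S genes to the right of 0 and the 3 chaperones to the left.

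For comparison, 73 cytosolic ribosomal protein genes had a median correlation of 0.27, with 8 at 0.5 or higher. The 16 vacuolar ATPase genes had a median of -0.08, with 1 at 0.5 or higher. The 20S genes thus lay between these 2 other families of subunits of large assemblies. Of the pathway genes, the values at 0.5 or higher were H2-K1 (0.63), H2-D1 (0.60) and Maff (0.55), a small partner of NRF factors. Over all 8618 genes, 1.35% reached 0.5 or higher. Maff was detected in 25 cells and H2-D1 in 33. The other small partners Mafg and Mafk had 0.11 and -0.05. None of the pathway genes was at -0.5 or lower, beside 0.870% of all genes. Medians over the tested genes were 0.17 for 13 of interferon and antigen presentation, 0.10 for 14 of ubiquitin supply, -0.04 for 12 regulators and -0.06 for 15 partners, of which Uchl5 was lowest (-0.39).

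A mean was taken per cell over log2(CPM + 1) of the 31 constitutive genes. It ran from 5.51 in library 10 to 7.91 in library 4 (median 7.001). Its rank correlation with Slc26a5 was 0.23. Taken separately, the mean of the 14 20S genes had 0.31 and that of the 17 19S genes 0.14. The mitochondrial share of counts, which ran from 1.81 to 13.0%, moved with both sides. That share had a rank correlation of -0.46 with the mean of the 31 genes and of -0.49 with Slc26a5. With ranks corrected for that share, the correlation with Slc26a5 was 0.01 for the 31 genes, 0.10 for the 20S and -0.04 for the 19S. Library 10, with the lowest mean, had 11.6% mitochondrial counts, and library 4, with the highest, had 3.98%.

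Other properties of the libraries also went along with the proteasome mean. Its rank correlation was 0.41 with the total count, 0.18 with the ribosomal protein share and 0.05 with the number of genes found. Slc26a5 itself had 0.67 with the ribosomal protein share. Corrected for the ribosomal protein share, the correlation with Slc26a5 was 0.06 in place of 0.42 for Psma2, 0.21 in place of 0.41 for Psmc1, 0.21 in place of 0.40 for Psmb1, 0.16 in place of 0.33 for Psmb5 and -0.20 in place of -0.31 for Psmd5. For the proteasome mean it was 0.15 with that correction and 0.14 corrected for total counts. In the 51 cells with Slc26a5 at 10 CPM or more, the proteasome mean had -0.04 with it, the 20S mean 0.10 and the 19S mean -0.07, and in the other 22 cells 0.23, 0.11 and 0.18. The pooled value of 0.23 was thus not seen among the 51 cells in which prestin was detected. A split on Slc26a5 itself narrows its range, which can lower a correlation, so no conclusion is drawn from this difference. Which of these library properties goes with the pooled value was not tested.

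**Figure D4:**
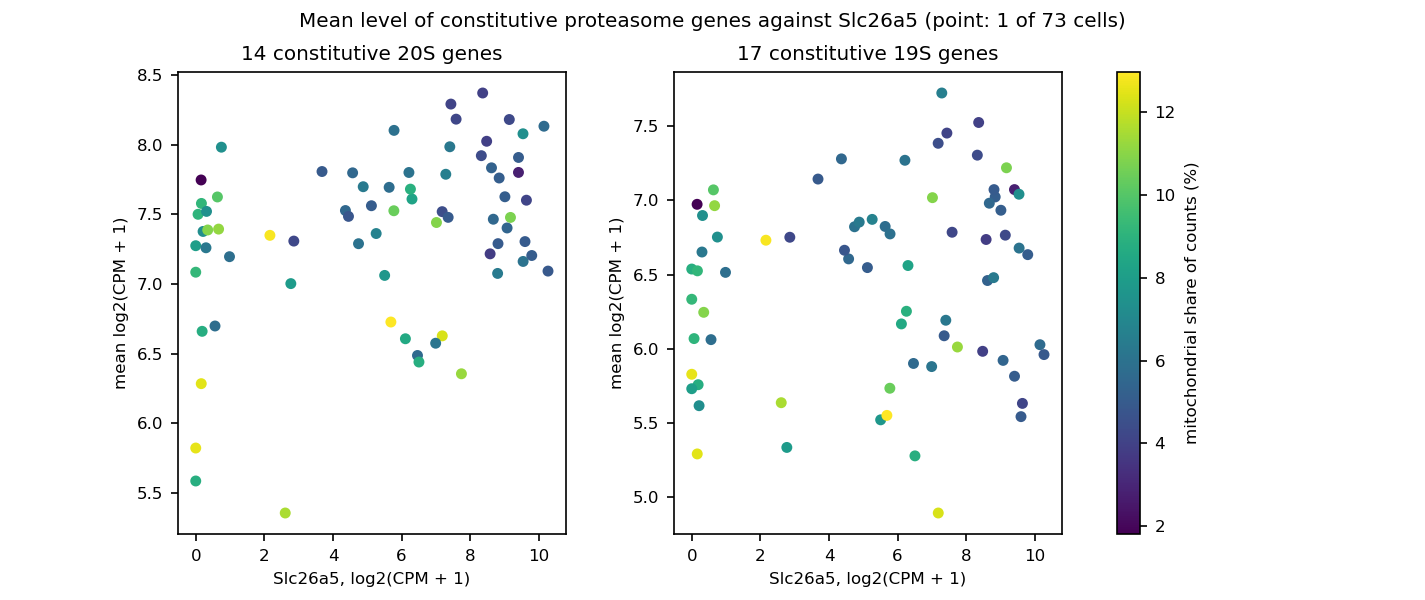
Mean log2(CPM + 1) of the 14 constitutive 20S genes (left) and 17 19S genes (right) against log2(CPM + 1) of Slc26a5, 1 point for each of 73 cells, coloured by the mitochondrial share of counts. Cells with the lowest 20S means, down to 5.35, are mostly among those with a high mitochondrial share, and among the 51 cells with Slc26a5 at 10 CPM or more no slope is visible.

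The subunits varied little in step with each other from cell to cell. Over the 666 pairs of the 37 genes the median rank correlation was 0.05, and 63.5% of pairs were above 0. For the 465 pairs of constitutive genes these were 0.08 and 74.8%, against 0.00 and 51.4% for all pairs of the 8618 genes. The ATPase ring had the highest share, with 93.3% of 15 pairs above 0 and a median of 0.12. Pairs within the 20S had a median of 0.09, pairs within the 19S 0.05, and pairs across the particles 0.09. The cytosolic ribosomal protein genes, for comparison, had 0.14. The 3 catalytic subunits, which sit in the same ring, had a median of only 0.015 over their 3 pairs.

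The highest pair was Psma2 with Psmb7 (0.45), followed by Psma1 with Psma2 (0.40) and Psmb2 with Psmd12 (0.36). The lowest was Psmd6 with Psme4 (-0.35). Set against the mean of the other 30 constitutive genes, 27 of the 31 were above 0, with a median of 0.23. For the 8582 genes outside the family with a mean of at least 10 CPM, the median against the mean of the 31 was 0.02. How many of those were above 0 was not counted, and these values are not corrected for library properties. Psma2 (0.41), Psmb2 (0.40) and Psma1 (0.39) followed the other constitutive genes most closely. Psma7 (-0.10), Psmd7 and Psmd11 (both -0.06) and Psmd13 (-0.02) were below 0. The means of the 2 particles, in which the noise of single genes is averaged, had 0.56 with each other, 0.47 corrected for the mitochondrial share and 0.50 corrected for total counts. Values of this size between single genes in single cells are weak and are given as a description.

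**Figure D5:**
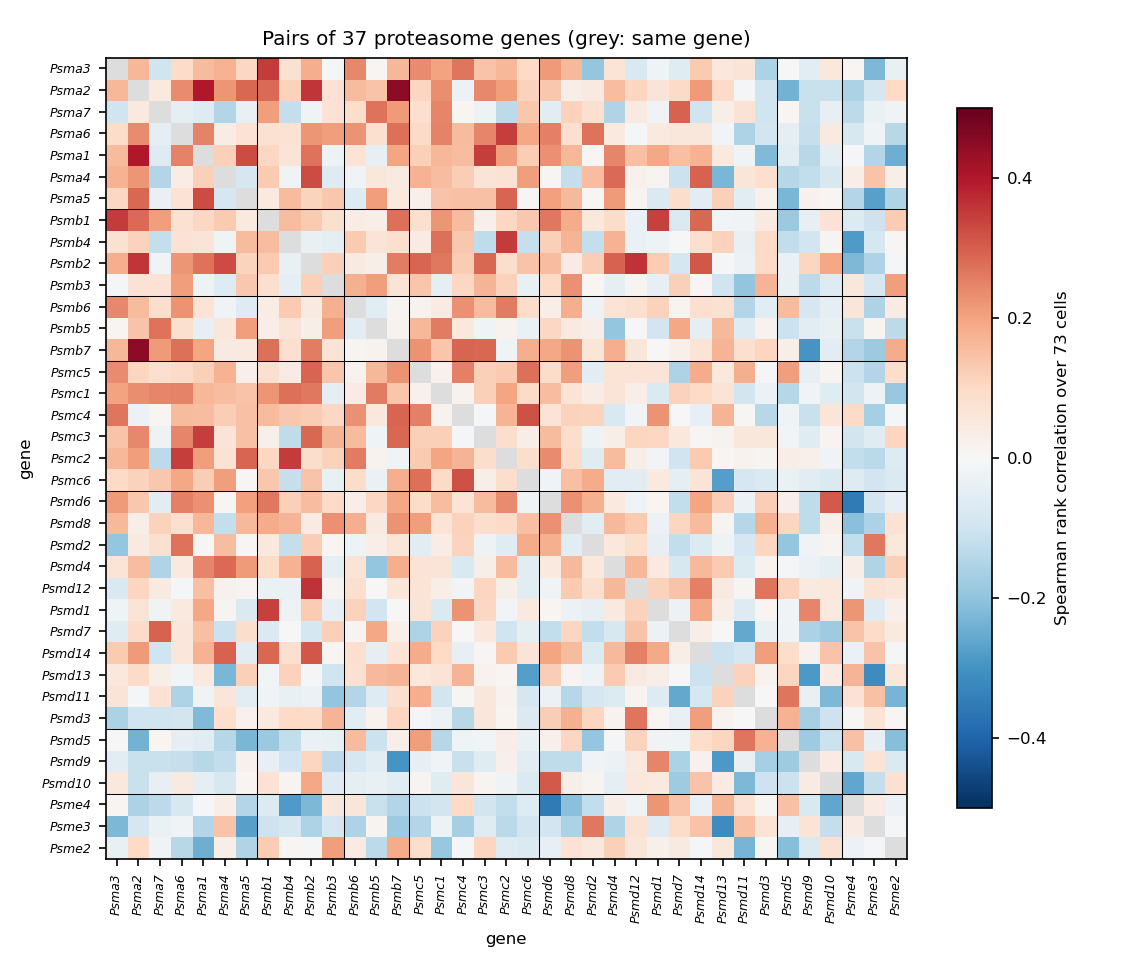
Rank correlation over 73 cells for each pair of the 37 proteasome genes whose mean was at least 10 CPM, ordered and boxed by class (scale from -0.5, blue, to 0.5, red). Pairs of core and ATPase genes at upper left are mostly pale red, and rows of Psmd5, Psmd9, Psme3 and Psme4 are mostly pale blue.

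Outside the family, 8582 genes with a mean of at least 10 CPM were ranked by their correlation with the mean of the 31. Their median was 0.02, with 5 genes at 0.5 or higher and 3 at -0.5 or lower. The genes named here are the ends of that ranking. Most like the mean over the 73 cells were H3f3b (0.57), a histone variant gene, Cnbp (0.54), Smyd2 (0.52), Ywhaz (0.51) and Skp1a (0.51). The next named genes were Sub1 (0.4998), Mdh1 (0.498), Hspa8 (0.49), Serinc1 (0.49) and Herpud1 (0.49). Hspa8 encodes the constitutive cytosolic chaperone, and Skp1a a subunit of ubiquitin ligases. Among genes with an official name the 5 least like it were Pgm2l1 (-0.52), Myo15 (-0.51), the motor of stereocilia tips, Lars2 (-0.49), Nup210l (-0.48) and the mitochondrial mt-Rnr2 (-0.47), and 1 transcript without such a name was lower (-0.57). With ranks corrected for the mitochondrial share the 10 highest ranged from 0.26 (Skp1a) to 0.46 (Serinc1), and the 5 lowest from -0.37 (Myo15) to -0.16 (mt-Rnr2). Counts of mt-Rnr2 are themselves part of that share. Of the pathway genes, Sqstm1, an autophagy receptor (0.45), Maff (0.44) and Nfyb (0.38) were among the closest, and Nfe2l1 was at -0.17.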

How the data were processed

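Each cell was reverse-transcribed with the Smart-Seq HT kit, per the labels' protocols. The authors deposited 1 table of raw counts, genes by cells, and all 73 columns matched a sample title. Per the submitters' processing notes, featureCounts 2.0.1, HISAT2 2.2.1, StringTie 2.2.1 and mm10 were used, without roles. The annotation and the use of strand are not given in the sources used here, so overlapping genes and near-identical copies are uncertain. PCR copies are included, since molecular identifiers are absent. The WPRE reporter row was left out of totals.

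Counts were divided by library totals to give CPM. Lengths and positions come from GENCODE vM21, which matched 53186 of 55291 gene rows. Means used log2(CPM + 1), and rank correlations were tested on simulated data that were less dispersed than the real cells. The members and lists were chosen with earlier results of these data known. The text names all members, the genes of 4 pathway lists (68 of 69 matched), Slc26a5, and the 10 highest and 5 lowest named genes by correlation with the mean of the 31. Some genes of these lists are not reported here. A design with 1 group allows no test, so a count model was not used and no p-value is given. Alternatives changed the scaling, filter, detection level, gene length, correlation and cells included. The software comprised R 4.3.3 with scran 1.30.0, and Python 3.11.15 with pandas 2.3.3, numpy 2.4.6, matplotlib 3.10.9 and scipy 1.17.1.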

Additional observations from a re-analysis of the deposited data

How the results depend on the processing

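Of 58 alternative values for the results that answer a question above, 53 stayed within their spread or within 1.5 times a count. Of 115 for other printed values, 84 did, 21 moved further and 10 changed sign. Spread meant the SD over genes, pairs or cells, the exact interval of a share, or a fixed margin for single correlations. It was wide, at 0.17 around the median correlation of 0.08 with Slc26a5. The correlation of the proteasome mean counted as staying at 0.14 in place of 0.23, corrected for total counts. Other values, such as the median immune share of 0, could hardly move. The tally is therefore no measure of stability. At a detection level of 50 CPM, the share of cells with Psmb8 was 0 in place of 1.37% and that with Psmb10 6.85% in place of 23.3%. Without the 25 cells in which a marker of another cell type reached 50 CPM, 1 gene (Psma2, 0.60) in place of 0 reached 0.5 with Slc26a5. The correlation of the proteasome mean with Slc26a5, 0.23, was 0.0129 with ranks corrected for the mitochondrial share and -0.0447 among cells with Slc26a5 at 10 CPM or more, an alternative chosen after seeing the data. The 19S mean changed sign under the same 2 alternatives (-0.0422 and -0.0667). The 20S mean had 0.17 corrected for the ribosomal protein share. Values near 0 also changed sign. Psmd6 had -0.0214 corrected for the mitochondrial share and -0.0078 for the ribosomal protein share. Psmb6 had -0.0095 as a Pearson value, -0.0693, -0.0332 and -0.0803 corrected for genes found, total counts and ribosomal protein share, and -0.0138 without mitochondrial genes in the total. Psme4 had 0.0171 corrected for the ribosomal protein share. Over these alternatives, 12 to 14 of the 20S genes and 7 to 13 of the 19S genes were above 0. The cause was not tested. No paired analysis was possible because there is 1 group of cells. With 1 sample, depth and the unknown number of animals limit every statement to these libraries.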
